A study of Arabidopsis thaliana with 16 samples.

Results

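Described here are 10 genes of the AP2/ERF family of plant transcription factors that are known from wounding and stress. They were listed by name, not by a threshold on values, but with earlier results of these data known: ORA47, ERF5, ERF6, ERF104, RRTF1, RAP2.6, RAP2.6L, ERF13, ERF2 and DEAR1. They are 10 of the 34262 genes listed for Arabidopsis thaliana Col-0 rosette leaves, and 9 of them had enough reads to be tested. Seedlings were sprayed at 2 weeks with water or with 1 mM jasmonic acid (JA), a wound and defence hormone, and this spray is called the history. The same plants were sprayed again at 5 weeks with water or with 0.1 mM JA, called the challenge, and leaves were taken 4 h later. This gave 4 groups, named by history and then challenge: W_W (water, water), W_JA (water, JA), JA_W (JA, water) and JA_JA (JA, JA). Each group held 4 libraries described as biological replicates. Every library was a pool of leaves from 2 plants, with 4 leaves taken per plant and 8 in all. All sprays carried 0.02% Silwet, a wetting agent, and control sprays carried the ethanol that dissolved the JA. All plants were wild type, and the labels separate the groups by spray only. Harvest order and handling of the groups are not given in the labels.

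AP2/ERF proteins bind DNA through the AP2 domain, and the family is split by sequence into groups. Group IX ERF proteins are known for binding the GCC box in defence gene promoters and for acting where ethylene and jasmonate signals meet. DREB proteins are known for binding the dehydration-responsive element (DRE), and group X ERF proteins for responses to wounding, reactive oxygen and hormones. Many of these genes are themselves induced within minutes to hours of wounding, touch, pathogen contact or hormone treatment, and several of the proteins are substrates of mitogen-activated protein kinases.

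The libraries held 32190193 to 34319939 counted reads. Levels are CPM, a gene's share of the counted reads of its library on a fixed scale, adjusted by TMM, a normalization that corrects for library composition. They are given as mean ± SD over 4 libraries (n = 4). Leaf identity was checked with marker genes: the summed level of 5 mesophyll genes reached from 29310 to 53460 CPM, and that of 3 root genes was at most 0.0653 CPM. Some of the marker sums moved with the groups. Mesophyll sums reached from 31380 to 41740 CPM in W_W, 29310 to 40660 in W_JA, 40380 to 51890 in JA_W and 40170 to 53460 in JA_JA. The 3 guard cell markers summed to 38.6 to 56.3 CPM in W_W and to 61.0 to 97.6 in the other groups. Within that sum, KAT1 was 1.69-fold lower with JA history under challenge (edgeR adjusted p = 0.00272), where FAMA and MYB60 were higher. The 2 phloem markers overlapped in all groups, at 387 to 568 CPM in W_W and 442 to 726 in JA_JA, and neither was called for challenge or history. The 2 epidermis markers summed to 43.1 to 58.1 CPM in W_W, 36.7 to 52.3 in W_JA, 54.7 to 90.0 in JA_W and 42.0 to 55.7 in JA_JA. Most of that sum was ATML1. PDF1 was 6.50-fold higher with JA history under challenge (edgeR adjusted p = 7.12e-05) and 2.53-fold lower with challenge of water-history plants (adjusted p = 0.0207). ATML1 was not called in either comparison. The 3 markers of dividing cells lay at 2.12 to 3.84 CPM in W_W, 2.33 to 2.81 in W_JA, 4.15 to 5.97 in JA_W and 3.26 to 5.95 in JA_JA. Within that sum, the cyclin gene AT4G37490 did not rise with JA history (log2 -0.22 without challenge and -0.18 under it, edgeR adjusted p = 0.586 and 0.697). Without challenge only the kinase gene AT1G76540 was called. The part of these cell type markers in the results was not tested. In whole leaves, fewer cells of a type and less RNA per cell cannot be told apart.

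The 10 genes lie on all 5 nuclear chromosomes of the TAIR10.1 assembly. ERF2 (AT5G47220, chr5:19171643-19172956, minus strand) and ERF5 (AT5G47230, chr5:19179881-19181182, plus strand) point away from each other, 6924 bases apart. ERF6 (AT4G17490, chr4:9752824-9754161, minus strand) faces away from ERF1A in the same manner, 5041 bases apart with no gene between. ERF104 (AT5G61600, chr5:24766344-24767732, minus strand) lies 832 bases from ERF107 on the same strand. RAP2.6 (AT1G43160, chr1:16263805-16264945) and RAP2.6L (AT5G13330, chr5:4271730-4274674), both on the plus strand, have 2 exons each, and the others are annotated with 1. The remaining genes are ORA47 (AT1G74930, chr1:28143851-28145058), RRTF1 (AT4G34410, chr4:16451876-16453260), ERF13 (AT2G44840, chr2:18495215-18496327) and DEAR1 (AT3G50260, chr3:18634546-18635514), all on the plus strand. No stretch of 50 bases, the read length, in the exons of 9 of the genes recurred elsewhere in the genome, and 3 of 1159 in ORA47 did.

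Promoters were searched on both strands, over the 250 bases before each annotated gene start, for 5 short motifs: the GCC box (GCCGCC), the G-box (CACGTG), the DRE core (CCGAC), the W-box core (TTGAC) and the rapid stress response element (CGCGTT). The G-box, the element bound by the basic helix-loop-helix factors of jasmonate signalling, was in 3 of the 10 windows and in 6.49% of all 27437 gene windows. The 3 windows belong to RAP2.6, ERF2 and RRTF1. They are shown as the windows that held it. Challenge raised RAP2.6 and lowered ERF2, and RRTF1 had too few reads to be tested. Whether the G-box had a part in these changes was not tested. RAP2.6L, which rose with challenge, is shown beside these windows and held none of the 5 motifs. Sequences are from the TAIR10.1 assembly, written 5′ to 3′ on the strand of the gene, with motif matches in capitals.
RAP2.6 (chr1:16263555-16263804, plus strand; G-box 83 to 78 bases before the start): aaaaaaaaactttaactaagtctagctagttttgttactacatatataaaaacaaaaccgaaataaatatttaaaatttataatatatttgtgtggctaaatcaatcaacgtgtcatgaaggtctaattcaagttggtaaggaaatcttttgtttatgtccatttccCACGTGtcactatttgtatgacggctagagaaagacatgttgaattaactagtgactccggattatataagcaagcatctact
ERF2 (chr5:19172957-19173206, minus strand; W-box core TTGAC, then G-box 39 to 34 bases before the start): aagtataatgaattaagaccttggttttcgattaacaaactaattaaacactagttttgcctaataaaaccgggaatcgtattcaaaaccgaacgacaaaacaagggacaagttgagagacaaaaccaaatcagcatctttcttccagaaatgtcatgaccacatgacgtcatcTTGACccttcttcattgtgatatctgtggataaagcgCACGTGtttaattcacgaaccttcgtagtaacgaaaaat
RRTF1 (chr4:16451626-16451875, plus strand; W-box cores as GTCAA and TTGAC, with the G-box between them, 134 to 129 bases before the start): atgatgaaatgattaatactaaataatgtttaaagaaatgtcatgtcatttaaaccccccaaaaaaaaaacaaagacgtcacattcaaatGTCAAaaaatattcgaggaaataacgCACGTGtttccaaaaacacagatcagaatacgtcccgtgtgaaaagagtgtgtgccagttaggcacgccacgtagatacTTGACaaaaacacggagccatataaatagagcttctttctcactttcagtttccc
RAP2.6L (chr5:4271480-4271729, plus strand; no match): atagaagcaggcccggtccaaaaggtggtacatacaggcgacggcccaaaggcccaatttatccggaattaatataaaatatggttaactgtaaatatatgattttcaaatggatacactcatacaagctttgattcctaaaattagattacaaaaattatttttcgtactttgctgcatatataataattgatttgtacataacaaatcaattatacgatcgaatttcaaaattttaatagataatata
The W-box core was in 5 of the 10 windows (ERF5, RRTF1, ERF13, ERF2 and DEAR1) against 44.9% of all windows. The DRE core was in 2 (ERF5 and DEAR1) and in 3285 of the 27437 windows of all genes. No window of the 10 held the GCC box or the rapid stress response element, which were in 1.87% and 2.59% of all windows. No 2 matches overlapped. A match describes letters in these windows and is not shown to be a binding site.

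Levels can be set against each other between genes only per length of exon. On that scale (CPM per kilobase), ERF2 stood highest in W_W at 20.7, ahead of ERF104 at 9.74, DEAR1 at 5.97 and ERF5 at 5.91. In W_JA, RAP2.6 was highest at 22.3, followed by RAP2.6L at 8.02 and ERF104 at 7.73. In JA_W no gene passed 6.32 (ERF2), with ERF5 at 2.55 and ERF104 at 2.24 behind it. In JA_JA, RAP2.6 stood at 22.3, ERF104 at 4.18 and ORA47 at 3.65. RRTF1 lay below 0.05 in every group. The leading AP2/ERF gene among the 10 was therefore ERF2 in both unchallenged groups and RAP2.6 in both challenged groups.

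**Figure D1:**
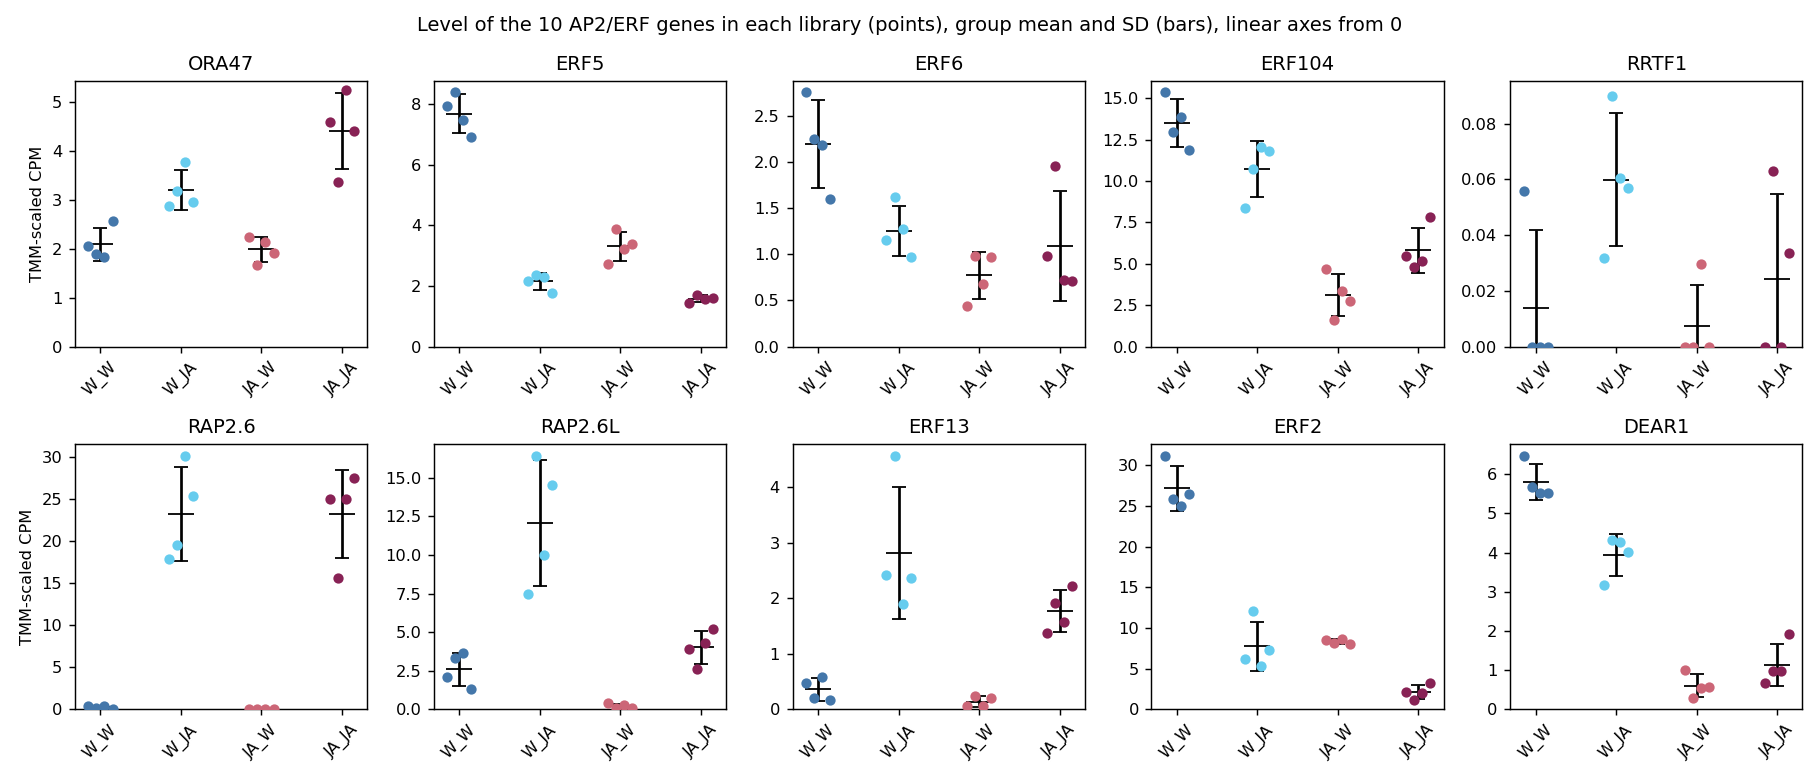
TMM-scaled CPM of the 10 genes in each of the 16 libraries (points, replicates 1 to 4 from left to right) with the group mean and SD (bars), each panel on its own linear axis from 0. RAP2.6, RAP2.6L and ERF13 are high in the 2 challenged groups, ERF2 and ERF5 are highest in W_W and lowest in JA_JA, and ERF104 and DEAR1 are lower in both JA-history groups than in both water-history groups.

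RAP2.6, a group X factor known to be induced by jasmonate, abscisic acid and salt, went from near silence to the highest level per length of the 10 genes after challenge. Its level was 0.362, 0.179, 0.360 and 0.029 CPM in the W_W libraries, from 13, 7, 13 and 1 reads. It was 17.9, 19.6, 30.1 and 25.4 CPM in W_JA. Each JA_W library held 1 read (0.0294 ± 0.00119 CPM, SD, n = 4), and the JA_JA libraries held 25.0, 15.6, 25.0 and 27.5 CPM. All 8 challenged libraries lay far above all 8 unchallenged ones, and the 2 challenged groups overlapped, at 23.3 ± 5.59 and 23.3 ± 5.25 CPM. The ratio of counts was 92.0 for W_JA over W_W (95% counting interval 65.7 to 133) and 745 for JA_JA over JA_W (291 to 2736), intervals that cover counting error only. The edgeR quasi-likelihood test gave log2 changes of 6.62 ± 0.33 (SE, adjusted p = 2.56e-10) and 9.46 ± 0.43 (adjusted p = 1.44e-10). These SE were worked back from the F statistic. The second change rests on 1 read per JA_W library and is less certain than 0.43 implies. Without challenge the level was lower with JA history (log2 -2.84 ± 0.81, edgeR adjusted p = 0.00579), although W_W replicate 4 had as few reads as the JA_W libraries. That difference rests on 4 reads against 34, a ratio of 0.115 (95% counting interval 0.0297 to 0.323), and the exact two-sided permutation test of the levels gave p = 0.114. Between the challenged groups the log2 difference was 0.00 ± 0.21, with a 95% interval of -0.46 to 0.47.

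RAP2.6L, a group X factor known from wound-induced tissue joining and shoot regeneration, rose with challenge and was lower with JA history, at both challenge states. The W_W libraries stood at 2.09, 3.32, 3.65 and 1.33 CPM and the W_JA libraries at 7.44, 16.4, 9.98 and 14.5. The JA_W libraries stood at 0.387, 0.090, 0.297 and 0.091 CPM and the JA_JA libraries at 3.93, 2.59, 4.31 and 5.21. All JA_W values lay below all others, all W_JA values above all others, and W_W and JA_JA overlapped. Challenge raised it 4.63-fold in water-history plants (edgeR adjusted p = 0.000138) and 18.0-fold in JA-history plants (adjusted p = 5.63e-06). JA history lowered it 11.7-fold without challenge (edgeR adjusted p = 9.08e-06) and 3.02-fold under challenge (adjusted p = 0.00141). Plants sprayed with JA at both ages did not differ detectably from plants never sprayed with it (log2 0.62 ± 0.34, edgeR adjusted p = 0.124).

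RRTF1, also called ERF109, a group X factor known for early responses to reactive oxygen and wounding and for activating the auxin synthesis genes ASA1 and YUC2, was near the limit of detection. W_W held 2, 0, 0 and 0 reads, W_JA 1, 3, 2 and 2, JA_W 0, 0, 1 and 0, and JA_JA 0, 2, 0 and 1. W_JA was the one group with a read in every library. The counts of 8 and 2 reads gave a ratio of 4.03 for W_JA over W_W (95% counting interval 0.805 to 39.0; exact two-sided permutation test, p = 0.0571, where 0.0286 is the smallest this design allows). For JA_JA over JA_W, 3 reads against 1 gave a ratio of 3.03 (0.243 to 159; exact permutation p = 0.429). Per library, 3 reads correspond to 0.0874 to 0.0932 CPM, so differences below that were not detectable at this depth. RRTF1 also overlaps a coding gene on the opposite strand, AT4G34412, over 301 bases, which had 5263 reads over the 16 libraries, and whether the counting used strand is not given in the sources used here.

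ERF13, a group IX factor known for roles in abscisic acid responses, rose with challenge from low levels. It stood at 0.474, 0.205, 0.581 and 0.174 CPM in W_W and at 2.43, 4.56, 1.91 and 2.36 in W_JA. In JA_W it stood at 0.055, 0.239, 0.059 and 0.212 CPM and in JA_JA at 1.38, 1.92, 1.57 and 2.22. All challenged libraries exceeded all unchallenged ones, while the histories overlapped at either challenge state. Challenge raised it 7.80-fold in water-history plants (edgeR adjusted p = 2.47e-05) and 12.3-fold in JA-history plants (adjusted p = 1.55e-05). The lower level in JA_W than in W_W (log2 -1.33 ± 0.55, edgeR adjusted p = 0.0411) rested on values below 0.6 CPM.

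ERF2, a group IX activator of GCC-box genes, was lower after each spray, at either state of the other. The W_W libraries stood at 31.1, 25.9, 25.0 and 26.5 CPM. W_JA held 6.16, 12.1, 5.38 and 7.25 CPM and JA_W 8.49, 8.10, 8.61 and 8.01. JA_JA held 2.13, 1.199, 2.06 and 3.29 CPM. W_W lay above and JA_JA below all other libraries, and W_JA and JA_W overlapped (log2 0.10 ± 0.23 for JA_W over W_JA, edgeR adjusted p = 0.723). Challenge lowered ERF2 3.51-fold in water-history plants (edgeR adjusted p = 2.76e-05) and 3.84-fold in JA-history plants (adjusted p = 2.98e-05). JA history lowered it 3.27-fold without challenge and 3.57-fold under challenge (edgeR adjusted p = 9.58e-06 and 8.47e-05). From W_W to JA_JA the drop was 12.5-fold (edgeR adjusted p = 1.56e-08), and the interaction was -0.13 ± 0.34 on the log2 scale, with adjusted p = 0.826.

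ERF5, a group IX factor known from chitin responses and from the control of leaf growth under osmotic stress, separated all 4 groups. It stood at 7.94, 8.41, 7.47 and 6.92 CPM in W_W and at 2.74, 3.89, 3.24 and 3.40 in JA_W. It stood at 2.17, 2.37, 2.30 and 1.76 CPM in W_JA and at 1.44, 1.70, 1.57 and 1.61 in JA_JA. In the order W_W, JA_W, W_JA and JA_JA, no library of one group reached into the next. Challenge lowered ERF5, by 3.57-fold in water-history plants (edgeR adjusted p = 1.87e-08) and by a log2 change of -1.07 ± 0.14 in JA-history plants (adjusted p = 1.86e-05). JA history lowered it 2.32-fold without challenge (edgeR adjusted p = 5.80e-07) and 1.36-fold under challenge (adjusted p = 0.0202).

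ERF6, the close relative of ERF5 and a known target of mitogen-activated protein kinases, was highest in W_W, and its other groups were not separated. It stood at 2.76, 2.25, 2.19 and 1.59 CPM in W_W and at 1.15, 1.62, 1.27 and 0.967 in W_JA. It stood at 0.443, 0.986, 0.683 and 0.971 CPM in JA_W and at 0.976, 1.96, 0.718 and 0.706 in JA_JA. The W_W libraries all lay above the JA_W libraries, while W_JA and the JA-history groups overlapped. JA history lowered ERF6 2.86-fold without challenge (edgeR adjusted p = 0.000517). The challenge difference in water-history plants was -0.81 on the log2 scale, with a 95% interval of -1.47 to -0.15 (edgeR adjusted p = 0.0574), and in JA-history plants 0.51 ± 0.34 (adjusted p = 0.269).

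ERF104, a group IX factor known as a substrate of the kinase MPK6 in the response to bacterial flagellin, differed more between histories than between challenges. The W_W libraries stood at 15.4, 13.0, 13.9 and 11.9 CPM and the W_JA libraries at 8.37, 10.7, 12.04 and 11.8. The JA_W libraries stood at 4.70, 1.61, 3.38 and 2.76 CPM and the JA_JA libraries at 5.46, 4.79, 5.16 and 7.83. Every water-history library lay above every JA-history library, and W_W and W_JA overlapped. JA history lowered ERF104 4.33-fold without challenge (edgeR adjusted p = 1.34e-06) and 1.85-fold under challenge (adjusted p = 0.00603). Challenge raised it 1.86-fold in JA-history plants (edgeR adjusted p = 0.00910), where JA_W replicate 1 at 4.70 CPM came close to JA_JA replicate 2 at 4.79. In water-history plants the log2 difference was -0.33 ± 0.22 (edgeR adjusted p = 0.294).

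DEAR1, a DREB protein that carries an EAR repression motif and is known from freezing and pathogen responses, showed the same order of groups as ERF104. It stood at 6.47, 5.68, 5.51 and 5.51 CPM in W_W and at 3.16, 4.32, 4.26 and 4.01 in W_JA. It stood at 0.996, 0.299, 0.534 and 0.576 CPM in JA_W and at 0.661, 0.978, 0.979 and 1.92 in JA_JA. The water-history libraries all lay above the JA-history libraries, and the JA-history groups overlapped. JA history lowered DEAR1 9.51-fold without challenge (edgeR adjusted p = 1.59e-07) and 3.50-fold under challenge (adjusted p = 0.000141). Challenge gave a log2 difference of -0.55 ± 0.25 in water-history plants (edgeR adjusted p = 0.108), where the groups did not overlap, and of 0.89 ± 0.32 in JA-history plants (adjusted p = 0.0445), where they did.

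ORA47, a DREB-type activator of jasmonate synthesis genes known for its fast response to wounding, rose with challenge by small factors. It stood at 2.06, 1.89, 1.83 and 2.58 CPM in W_W and at 2.87, 3.18, 3.78 and 2.96 in W_JA. It stood at 2.24, 1.67, 2.14 and 1.91 CPM in JA_W and at 4.59, 3.38, 5.25 and 4.40 in JA_JA. The challenged libraries all lay above the unchallenged ones, and the histories overlapped at both challenge states. Challenge raised ORA47 1.53-fold in water-history plants (edgeR adjusted p = 0.00980) and 2.21-fold in JA-history plants (adjusted p = 4.92e-05). Without challenge the history difference was -0.07 on the log2 scale, with a 95% interval of -0.43 to 0.30, and ORA47 was the 1 tested member with no call there.

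Challenge of water-history plants split the 9 tested genes. It raised RAP2.6, ERF13, RAP2.6L and ORA47 and lowered ERF5 and ERF2, while ERF6, ERF104 and DEAR1 were not called. Of all 19224 genes tested, 13.9% were raised and 12.9% lowered at an adjusted p under 0.05, 26.8% together. The 4 and 4 libraries did not overlap for 7 of the 9 members, as for 24.7% of all genes. The median log2 change of the 9 was -0.33, beside -0.00320 over all genes tested. With library totals as the only scaling, 8.75% of all genes were raised and 19.6% lowered. ERF6 was called lower with DESeq2 (adjusted p = 0.0336), with library totals (0.0297) and without W_W replicate 4 (0.0370), W_JA replicate 2 (0.0469), JA_W replicate 1 (0.0442) or JA_JA replicate 2 (0.0190), 3 (0.0495) or 4 (0.0438), and DEAR1 without JA_JA replicate 4 (0.0426).

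Challenge of JA-history plants raised 6 of the 9 tested genes, adding ERF104 and DEAR1 to the 4 raised in water-history plants, and lowered ERF2 and ERF5. ERF6 was not called. Over all genes tested, 15.4% were raised and 16.5% lowered, 31.9% together, and the median log2 change was -0.01 beside 0.89 for the 9. The libraries of the 2 groups did not overlap for 7 members and for 33.5% of all genes. With library totals, 10.9% of all genes were raised and 23.1% lowered. The call of DEAR1 was lost with library totals (edgeR adjusted p = 0.0709) and without replicate 2, 3 or 4 of any of the 4 groups (0.0502 to 0.181, the last without JA_JA replicate 4).

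JA history lowered 8 of the 9 tested genes in unchallenged plants and raised none. Over all genes tested, 33.8% were raised and 31.1% lowered, 64.9% together, so that calls in either direction were common, and the median log2 change was 0.05 beside -1.71 for the 9. The groups did not overlap for 6 members and for 59.4% of all genes. Among the 8, RAP2.6L was 11.7-fold lower, DEAR1 9.51-fold, ERF104 4.33-fold and ERF5 2.32-fold, while RAP2.6 had 1 read per JA_W library and no exact fold. The call of ERF13 was lost with upper-quartile scaling (edgeR adjusted p = 0.0506) and without W_W replicate 1 (0.104) or 3 (0.144) or JA_W replicate 1 (0.116) or 3 (0.111).

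Under challenge, JA history lowered ERF2, DEAR1, RAP2.6L, ERF104 and ERF5, raised ORA47 1.38-fold (edgeR adjusted p = 0.0281) and left ERF6, ERF13 and RAP2.6 without a call. Over all genes tested, 18.9% were raised and 21.2% lowered, 40.1% together, with a median of 0.01 beside -0.67 for the 9. The groups did not overlap for the 5 members lowered and for 32.6% of all genes. With library totals these shares were 12.7% and 26.1%, and with upper-quartile scaling 25.5% and 17.1%. ORA47 lost its call with library totals (edgeR adjusted p = 0.0887) and without W_JA replicate 1 (0.0691), 2 (0.0599) or 4 (0.0755) or JA_JA replicate 1 (0.0580) or 3 (0.103). ERF5 lost its call with upper-quartile scaling (0.0515) and without W_JA replicate 2 (0.0621) or JA_JA replicate 1 (0.0548).

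**Figure D2:**
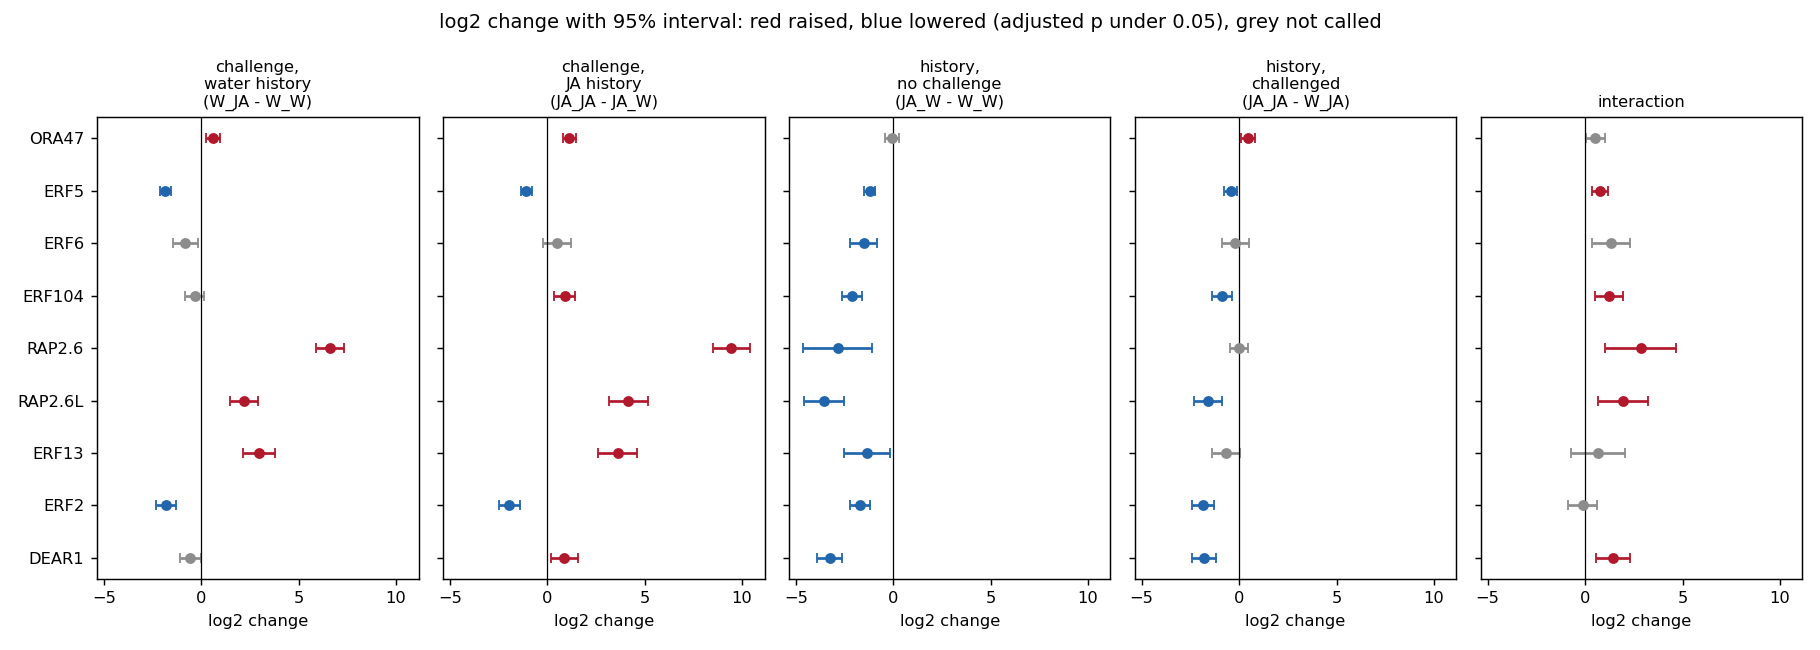
Log2 change of the 9 tested genes with approximate 95% intervals (bars) in 5 comparisons, all on one axis, with calls at an edgeR adjusted p under 0.05 in colour. History without challenge lowered 8 of the 9, beside 31.1% of all genes tested. The challenge panels hold rises of RAP2.6, RAP2.6L, ERF13 and ORA47 beside falls of ERF2 and ERF5.

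The challenge effect differed between histories, tested as an interaction, for 5 of the 9 genes, and in all 5 it was more positive in JA-history plants. Over all genes tested, 8.01% were called in that direction and 10.4% in the other, 18.4% together, with a median of -0.00305 beside 1.23 for the 9. RAP2.6 had an interaction of 2.84 ± 0.84 on the log2 scale (edgeR adjusted p = 0.0288), RAP2.6L 1.96 ± 0.59 (0.0322), DEAR1 1.44 ± 0.40 (0.0212), ERF104 1.23 ± 0.32 (0.0162) and ERF5 0.77 ± 0.19 (0.0111). In RAP2.6 and RAP2.6L the larger fold started from a lower JA_W level, and the challenged level was the same or lower in JA-history plants. In ERF5 the fall was smaller. In ERF104 and DEAR1 a difference below 0 in water-history plants, not called, stood against a rise in JA-history plants. ORA47 (0.53 ± 0.23, edgeR adjusted p = 0.118), ERF6 (1.32 ± 0.45, 0.0520) and ERF13 (0.66 ± 0.63, 0.501) were not called.

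The interaction calls of RAP2.6, RAP2.6L and DEAR1 depended on single libraries. RAP2.6 lost its interaction call without W_W replicate 1 (edgeR adjusted p = 0.0752) or 3 (0.0704) and without any one of the JA_W libraries (0.0541 to 0.0666). RAP2.6L lost it without W_W replicate 2 (0.0594) or 3 (0.0629), W_JA replicate 3 (0.0559), JA_W replicate 2 (0.0857) or 4 (0.0761), or JA_JA replicate 1 (0.0544), 3 (0.0503) or 4 (0.0540). DEAR1 lost it without JA_W replicate 2 (0.0503). ERF6 gained a call with DESeq2 (adjusted p = 0.0226), and in edgeR with RLE scaling (adjusted p = 0.0474), library totals (0.0492) and the filter of 1 CPM in 4 libraries (0.0491). ERF6 also gained one without W_W replicate 4 (0.0334), W_JA replicate 2 (0.0425) or JA_JA replicate 3 (0.0362) or 4 (0.0301), and ORA47 without JA_JA replicate 2 (0.0470). The number of members called ranged from 2 (without JA_W replicate 2) through 3 (without W_W replicate 3 or JA_W replicate 4) to 6 as single libraries were left out. The number of all genes called, 3539, fell to 2344 without JA_W replicate 2.

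**Figure D3:**
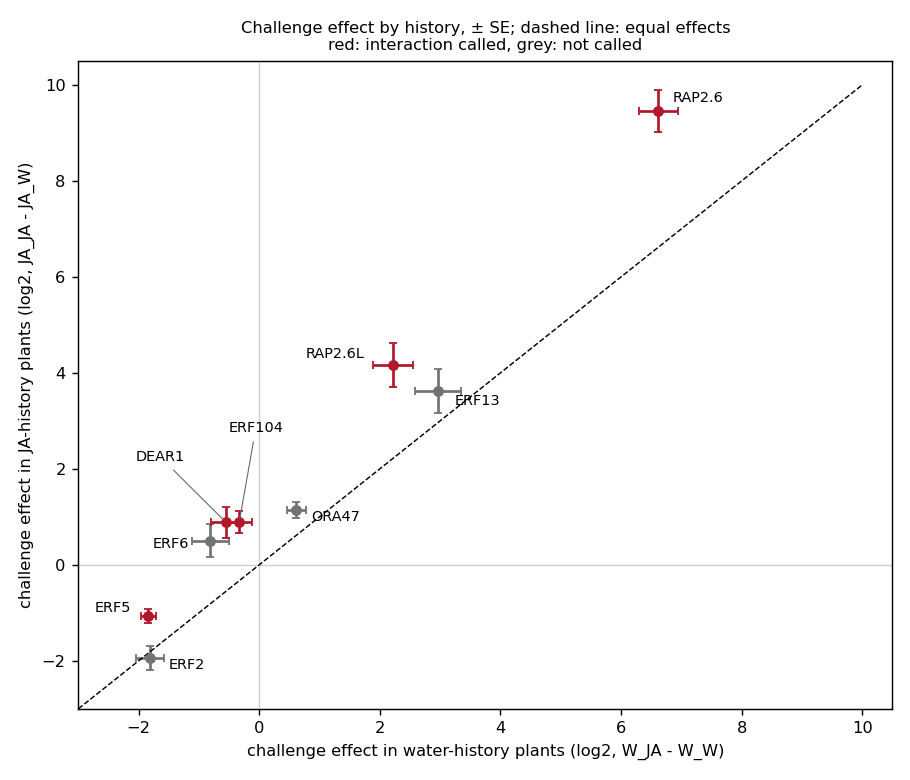
Log2 challenge effect in JA-history plants (vertical axis) against that in water-history plants (horizontal axis) for the 9 tested genes, with SE bars; red points have a called interaction. All 9 but ERF2 lie above the dashed line of equal effects, and ERF2 lies on it within its SE.

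Across the 2 ways of having received JA once, the seedling spray left lower levels than the fresh challenge for 6 genes and a higher level for ERF5. JA_W was below W_JA for RAP2.6, RAP2.6L, ERF13, DEAR1, ERF104 and ORA47, above it for ERF5 (log2 0.62, edgeR adjusted p = 0.000770), and not called for ERF2 and ERF6. Without JA_JA replicate 2, ERF6 was called lower there (edgeR adjusted p = 0.0281). Over all genes tested, 29.7% were higher and 30.3% lower in JA_W than in W_JA, 60.0% together, and the libraries did not overlap for 7 members and 53.3% of all genes. Plants that received JA at both ages, against plants that never did, had 3 of the 9 genes higher (RAP2.6, ERF13 and ORA47) and 5 lower (ERF2, DEAR1, ERF5, ERF104 and ERF6), beside 30.6% and 29.1% of all genes, 59.8% together. These groups did not overlap for 7 members and 50.9% of all genes. With library totals those shares of all genes were 18.4% and 40.6%. ERF2 at 12.5-fold and DEAR1 at 5.14-fold lower were the members with the largest drop.

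Some of the genes varied together between libraries of the same group. ERF104 and DEAR1 were the pair with the highest Pearson correlation of log2 levels, 0.97 over the 16 libraries and 0.86 for deviations from the group means, among 36 pairs of tested genes. JA_W replicate 2 was lowest of its group for both and JA_JA replicate 4 highest for both. ERF2 and ERF5 correlated at 0.90 over the libraries but at -0.02 for deviations, so their likeness lay in the order of the groups. ERF104 and RAP2.6L reached 0.70 and ERF5 and ERF6 0.69 for deviations. The lowest, -0.66, was between ORA47 and ERF6. The pairs named were picked after all pairs were seen, the points share their libraries, and no p is given. Counting all 10 genes, W_W replicate 1 was the highest of its group for 6 genes and replicate 4 the lowest for 7, and in W_JA replicate 2 was the highest for 7. Some of these ranks were narrow. In W_W, RAP2.6 had 13 reads in both replicates 1 and 3, RRTF1 had 2 reads in replicate 1, and DEAR1 stood at 5.51 CPM in both replicates 3 and 4. The matching counts over all genes were not computed.

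**Figure D4:**
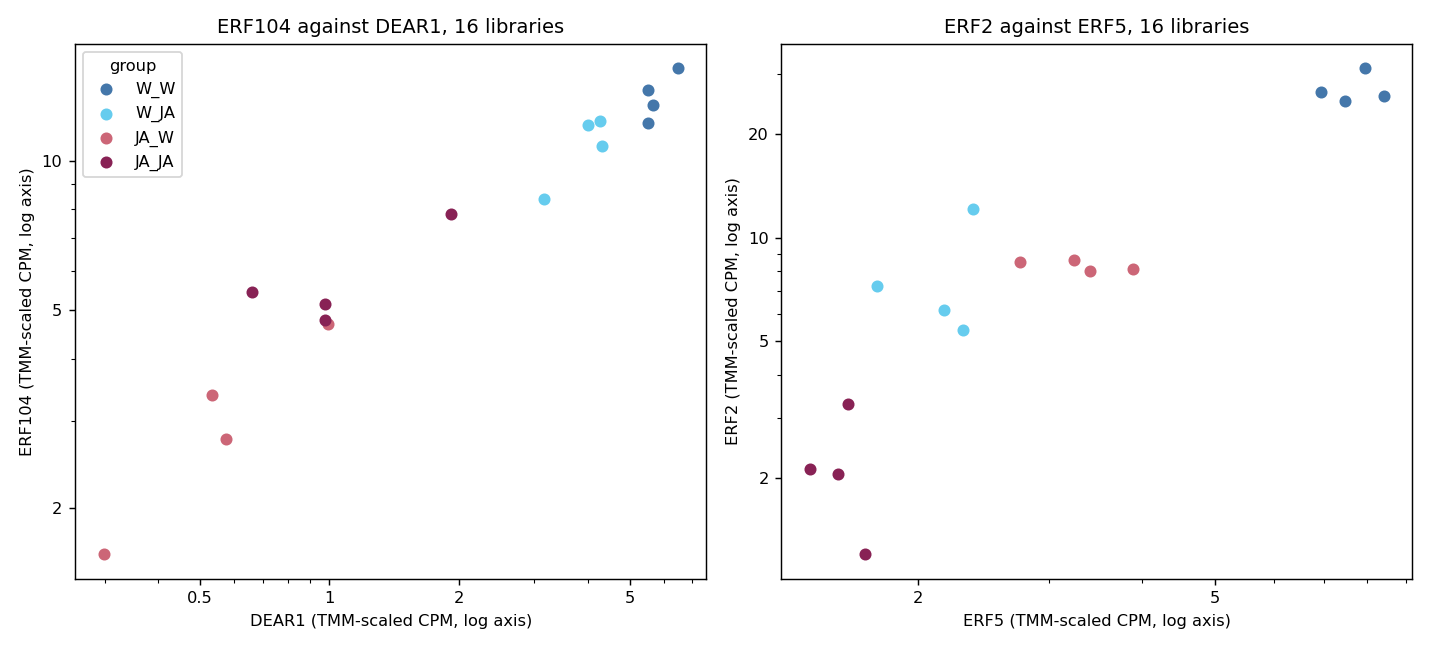
TMM-scaled CPM (log axes) of ERF104 against DEAR1 and of ERF2 against ERF5 in the 16 libraries, coloured by group. The first pair runs along one line from JA_W to W_W, including within groups; the second parts into the groups with no trend inside them.

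Of genes outside the 10, those whose log2 levels followed each member most closely over the 16 libraries were listed by Pearson r, as a description of 19224 genes seen in the same libraries. RAP2.6 was followed by ST2A, a hydroxyjasmonate sulfotransferase gene, at r = 0.99, and AT4G35160 at 0.99. RAP2.6L was followed by AT5G38710 and AT2G46600 (both 0.98), ERF13 by AT1G31550 (0.97) and AT4G24340 (0.96), and ORA47 by AT5G51390 (0.96) and ENP (0.95). DEAR1 was followed by AT5G22540 (0.99) and ZAT7 (0.98), a zinc finger gene, and ERF104 by CAN (0.97), a nuclease gene, and UGT85A1 (0.97), a glycosyltransferase gene. ERF2 was followed by ALDH2C4 and ADL6 (both 0.97), ERF5 by LACS3 (0.97), a long-chain acyl-CoA synthetase gene, and KCS12 (0.96), a fatty acid elongase gene, and ERF6 by VRN1 and AT1G61170 (both 0.91).

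Other genes of the family moved in part like their relatives among the 10. Of 12 further group IX genes 6 were tested. Challenge of water-history plants lowered 5 and JA history without challenge lowered 5, beside 12.9% and 31.1% of all genes tested. Challenge of JA-history plants raised 2 and lowered 1, beside 15.4% and 16.5%. The median log2 changes of the 6 genes in these comparisons were -0.89, -1.65 and 0.05. ORA59, a regulator of defensin genes, fell 12.1-fold with challenge of water-history plants, from 3.25 ± 0.837 to 0.266 ± 0.192 CPM (edgeR adjusted p = 8.63e-06), and 9.78-fold in JA-history plants. ERF1, an ethylene and jasmonate integrator, fell 23.4-fold with JA history, from 1.62 ± 0.689 to 0.0652 ± 0.0335 CPM (edgeR adjusted p = 1.78e-07). Challenge then gave ERF1 a rise of 3.00-fold in JA-history plants, to 0.207 ± 0.0495 CPM (edgeR adjusted p = 0.0352), a call lost without JA_W replicate 2 (0.0746), 3 (0.0923) or 4 (0.0704) or JA_JA replicate 1 (0.0504), 3 (0.0819) or 4 (0.0663). Its interaction was 3.53 on the log2 scale (edgeR adjusted p = 0.00166), among 3 group IX interactions called, all more positive in JA-history plants. Over all genes tested, 8.01% were called in that direction. ERF1A, the neighbour of ERF6, was the 1 gene of this list lowered by history under challenge (1.87-fold, edgeR adjusted p = 0.00346), beside 21.2% of all genes. Library totals gave 3 there, and leaving out any W_W library but replicate 3, or W_JA replicate 1, gave 2.

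Among 5 further group X genes 3 were tested, and the 1 called in the challenge or history comparisons was ERF112. It fell 3.55-fold with challenge of water-history plants and 6.26-fold with JA history (edgeR adjusted p = 0.00493 and 0.000101), while RAP2.6 and RAP2.6L rose in the first of these comparisons. Over all genes tested, 12.9% were lowered in the first and 31.1% in the second. History without challenge lowered 2 of the 3 with DESeq2, RLE scaling or library totals and without JA_W replicate 1 or JA_JA replicate 2 or 4. Of 17 further DREB genes 13 were tested, and their calls went both ways: 2 raised and 2 lowered by challenge of water-history plants, 1 and 4 in JA-history plants, and 3 and 4 by history without challenge. The shares of all genes raised and lowered were 13.9% and 12.9%, 15.4% and 16.5%, and 33.8% and 31.1% in the same order. TINY2 stood at 2.48 ± 0.470 CPM in W_W and at 12.6 ± 3.16 in JA_W, 5.06-fold higher (edgeR adjusted p = 6.06e-08), and challenge of JA-history plants lowered it 3.55-fold. ERF16 lay at 0.00724 ± 0.0145 CPM in W_W and 0.373 ± 0.112 in W_JA, and at 0.00692 ± 0.0138 in JA_W and 0.547 ± 0.129 in JA_JA, on 122 reads in all 16 libraries (edgeR adjusted p = 2.02e-05 and 3.65e-06). DREB2A, a heat and drought regulator, fell 2.28-fold with JA history and 1.70-fold under challenge (edgeR adjusted p = 0.000522 and 0.0241). The second call was lost without W_JA replicate 3 (0.0732) or 4 (0.0579) or JA_JA replicate 2 (0.0695) or 3 (0.0665). RAP2.1 fell 1.82-fold with challenge of water-history plants (edgeR adjusted p = 0.000509).

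ERF repressors are group VIII proteins with an EAR motif. Of 8 listed 7 were tested, with 1 raised by challenge in water-history plants, 3 raised and 1 lowered in JA-history plants, 4 lowered by history without challenge, and 1 raised and 3 lowered under challenge. The gene raised there was ERF10, 1.66-fold (edgeR adjusted p = 0.0343), a call lost with DESeq2 (0.0931), with library totals (0.0824) and without W_JA replicate 1 (0.0857), 2 (0.0834) or 4 (0.0810) or JA_JA replicate 1 (0.0565), 2 (0.0814) or 4 (0.0834). Over all genes tested, challenge raised 13.9% and lowered 12.9% with water history, and raised 15.4% and lowered 16.5% with JA history. For history these shares were 33.8% raised and 31.1% lowered without challenge, and 18.9% and 21.2% under it. ERF4 rose 1.46-fold with challenge of water-history plants (edgeR adjusted p = 0.000417). ERF10 rose 2.48-fold and ERF9 fell 2.00-fold with challenge of JA-history plants (adjusted p = 0.00164 and 0.0103). ERF11 was lower with JA history, 2.56-fold without challenge and 3.51-fold under challenge (edgeR adjusted p = 0.000881 and 0.000337), the challenged means being 2.30 ± 0.795 and 0.656 ± 0.189 CPM.

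Of 12 upstream signalling genes (jasmonate receptor and MYC factors, kinases, ethylene factors), JA history lowered 11 without challenge and 8 under challenge, and raised 1 and none. Over all genes tested, 31.1% and 21.2% were lowered, and 33.8% and 18.9% raised. MKK4, a kinase kinase of the MPK3 and MPK6 cascade, stood at 28.3 ± 5.40 CPM in W_W and 8.17 ± 1.02 in JA_W, 3.46-fold lower (edgeR adjusted p = 1.09e-06), and was 2.37-fold lower under challenge (adjusted p = 0.000172). MYC4, a jasmonate response factor, was the gene raised, 1.96-fold (edgeR adjusted p = 3.25e-08). It also rose 1.67-fold with challenge of water-history plants and fell 1.35-fold with challenge of JA-history plants (interaction -1.17 on the log2 scale, edgeR adjusted p = 6.75e-06). Challenge of water-history plants raised 2 of the 12 and lowered 5, among them MKK9 by 1.64-fold (edgeR adjusted p = 0.0185, but 0.0607 without W_JA replicate 3), and challenge of JA-history plants raised 3, led by MYC3 at 1.72-fold, and lowered 1. Of all genes tested, challenge raised 13.9% and lowered 12.9% with water history, and raised 15.4% and lowered 16.5% with JA history. The median log2 change of the list was -0.75 for history without challenge and -0.24 for challenge of water-history plants.

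Of 14 genes reported as targets of these factors (jasmonate synthesis genes for ORA47, ASA1 and YUC2 for RRTF1, defence genes for ERF proteins, GA2OX6 for ERF6), all were tested. Challenge raised 9 in water-history plants and 10 in JA-history plants, and lowered 0 and 1. Over all genes tested, 13.9% and 15.4% were raised, and 12.9% and 16.5% lowered. AOC1, an allene oxide cyclase gene, rose 11.3-fold from 82.0 ± 22.9 to 929 ± 30.0 CPM and, in JA-history plants, 11.4-fold from 131 ± 48.0 to 1493 ± 291 (edgeR adjusted p = 1.73e-08 and 1.69e-08), folds that stood beside rises of ORA47 of 1.53-fold and 2.21-fold. GA2OX6, a gibberellin oxidase gene, was the target lowered, 2.09-fold (edgeR adjusted p = 0.0329), a call lost without JA_W replicate 1 (0.127) or 4 (0.0870) or JA_JA replicate 1 (0.0710), 2 (0.0977) or 3 (0.0896). JA history raised 6 and lowered 5 at both challenge states, beside 33.8% and 31.1% of all genes without challenge and 18.9% and 21.2% under it. AOS, another jasmonate synthesis gene, was 2.49-fold higher in JA_W than in W_W (edgeR adjusted p = 6.43e-07), and the defensin gene PDF1.2a 9.13-fold lower without challenge and 5.69-fold lower under it (adjusted p = 0.000392 and 0.00161). The jasmonate synthesis genes went both ways with history. In JA_W, LOX2, AOC1, AOC2 and AOC4 were also raised, and LOX3 and OPR3 were not called. AOC3 was 4.75-fold and LOX4 2.63-fold lower there (edgeR adjusted p = 7.63e-05 and 0.000136). Under challenge, JA history lowered AOC3, LOX3 and LOX4, raised AOS, AOC1, AOC2, AOC4 and OPR3, and left LOX2 without a call. The interaction was positive for ASA1 (1.31, edgeR adjusted p = 0.000245), where RRTF1 itself had too few reads to be tested, and negative for 2 genes, among them LOX3 (-1.47, adjusted p = 0.0199). Over all genes, 8.01% had a called positive and 10.4% a called negative interaction.

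Early stress genes outside the family were 17 genes known for fast responses to wounding or handling: zinc finger, WRKY, calmodulin-like and touch genes, and BAP1. Without challenge JA history lowered 16 of 17 and raised 1, with a median log2 change of -2.25 beside -1.71 for the 9 members and 0.05 for all genes. Under challenge it lowered 13. Of all genes, history lowered 31.1% and raised 33.8% without challenge, and lowered 21.2% under it. The part of these 17 early stress genes in the members' values was not tested. WRKY40, a pathogen and wound responsive repressor, stood at 57.4 ± 15.7 CPM in W_W and 5.19 ± 5.83 in JA_W, and CML37, a calmodulin-like gene, was 13.9-fold lower in JA_W and 7.15-fold lower in JA_JA than in the matched water-history group (edgeR adjusted p = 2.51e-07 and 3.60e-05). The 1 gene raised was TCH2, 1.55-fold (adjusted p = 7.48e-05). Challenge of water-history plants lowered 8 and raised 1, with CML38 up 2.06-fold and WRKY40 down 3.16-fold (edgeR adjusted p = 0.0205, but 0.0565 without W_W replicate 2 and 0.0505 and 0.0638 without W_JA replicate 1 or 4). Without W_JA replicate 4 the number lowered was 5. That challenge lowered 12.9% of all genes and raised 13.9%. Challenge of JA-history plants raised 7 and lowered 2, with CML38 up 8.45-fold (edgeR adjusted p = 4.26e-07) and TCH2 down 2.16-fold. With library totals as the scaling 3 were raised there, without JA_W replicate 2 also 3, and without JA_W replicate 3 or 4 or JA_JA replicate 1 or 4 each time 4. The same challenge raised 15.4% of all genes and lowered 16.5%. The interaction was called for 8, of which 7 were positive (11 without JA_W replicate 1), the largest being WRKY40 at 2.83 on the log2 scale (edgeR adjusted p = 0.0143). Over all genes, 18.4% had a called interaction, 8.01% a positive one.

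**Figure D5:**
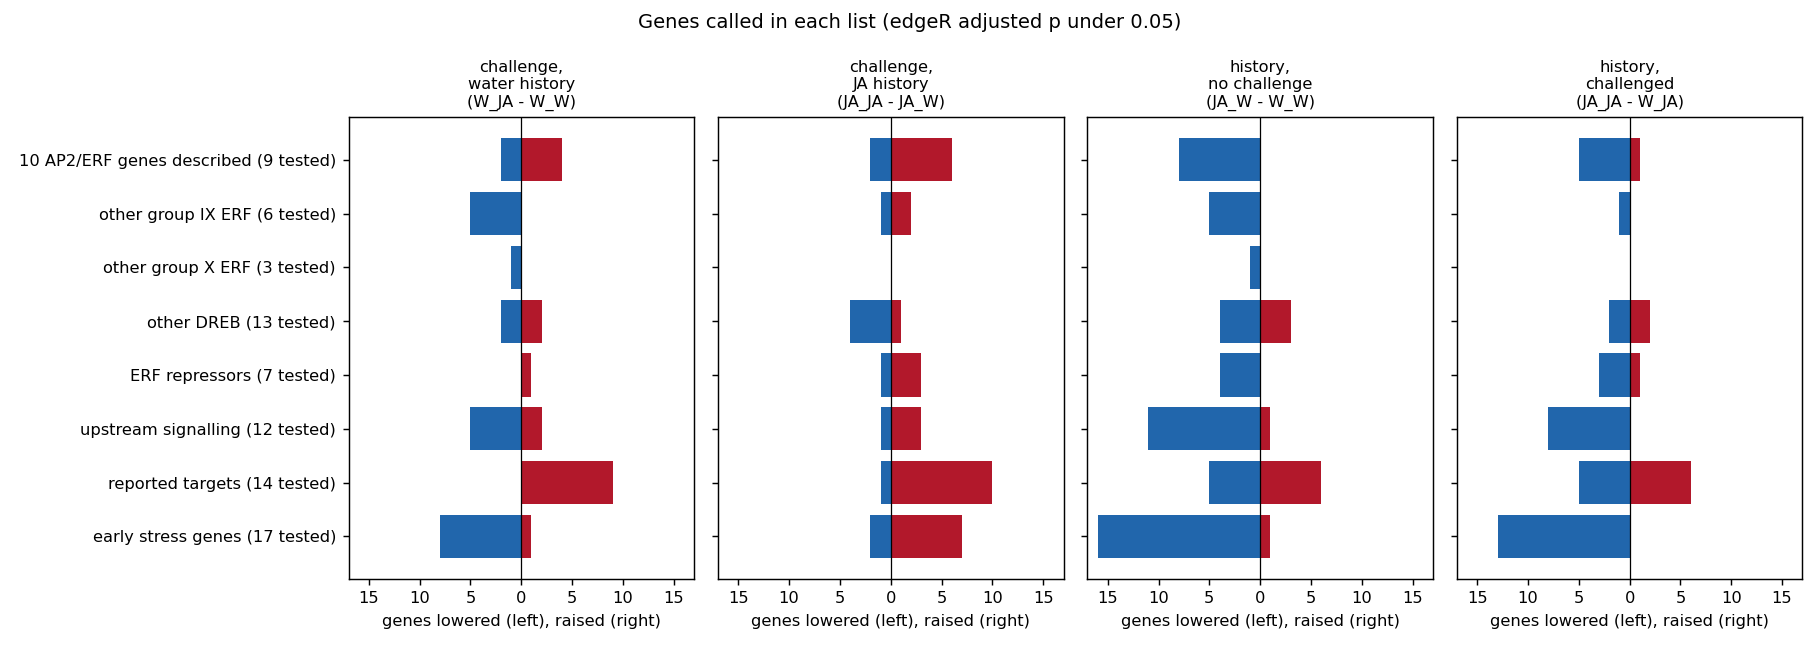
Number of genes called lower (left of 0, blue) and higher (right of 0, red) at an edgeR adjusted p under 0.05, for the 10 AP2/ERF genes and 7 lists, in 4 comparisons. History without challenge lowered 8 of 9 members, 5 of 6 group IX genes, 11 of 12 signalling genes and 16 of 17 early stress genes, beside 31.1% of all genes tested. The reported targets were mostly raised by challenge, beside 13.9% of all genes with water history and 15.4% with JA history.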

How the data were processed

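Poly(A) RNA from 16 libraries was sequenced as 50 bp single-end reads. Per the submitters' processing notes, the tools were Trimmomatic 0.38, STAR 2.6.1b and HTSeq 0.9.1 with TAIR10. Their settings and the strandedness are not given in the sources used here. The authors deposited raw counts per gene and CPM for each library. The deposited CPM served only as a check: they equalled count over total to within 5.09e-11.

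Counts were filtered with filterByExpr (minimum count 10, minimum total 15), which left 19224 of 34262 genes, and scaled with TMM (factors 0.888 to 1.14). One model over 16 libraries (12 residual degrees of freedom) was fitted with edgeR 4.0.16 in R 4.3.3, and 7 comparisons were tested by the robust quasi-likelihood F-test, p-values being adjusted by Benjamini-Hochberg across all tested genes and called under 0.05. The biological coefficient of variation was 15.4%. The pipeline was run on simulated counts in which a small set of genes was changed in a single group. Comparisons in which most genes change were not simulated, so that run cannot show how the scaling behaves there.

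The alternatives were DESeq2 1.42.0, other scalings, other filters (none, or 1 CPM in 4 libraries), 2-group fits, a replicate block and leaving out each library. The SE printed with log2 changes are the absolute change over the square root of the F statistic. The 95% intervals of log2 changes use a t quantile with 12 degrees of freedom, not the degrees of freedom of the F-test. These SE and intervals are therefore approximate, most of all for genes with few reads. Intervals on read ratios are exact 95% binomial intervals, and permutation tests used SciPy 1.17.1. CPM per kilobase used exon lengths of the TAIR10.1 annotation, which also gave positions and promoter windows; the files carry no coordinates. Protein sequences were not used here.

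The members and lists were chosen with earlier results of these data known. Genes named from a list are, in each comparison, the called gene with the largest rise and fall, and likeness names the 2 genes of highest r. No 2 libraries of a group were copies.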

Additional observations from a re-analysis of the deposited data

Results flagged for a closer look

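The challenge effect differed between histories, by the interaction term of the edgeR model, for 5 of the 9 tested AP2/ERF genes. On the log2 scale the difference was 0.77 for ERF5, 1.23 for ERF104, 2.84 for RAP2.6, 1.96 for RAP2.6L and 1.44 for DEAR1, each more positive in JA-history plants. Over all genes tested, 18.4% had a called interaction, 8.01% in that direction. The count of members was 2 to 6 as single libraries were left out, 2 without JA_W replicate 2, and the calls of RAP2.6, RAP2.6L and DEAR1 were lost without some libraries. The challenged mean of RAP2.6 was 23.3 CPM in both histories, while the other 4 genes were lower in JA_JA than in W_JA.

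In 2 of 40 sets of 4 libraries, 1 library was flagged by its gap to the next library over the range of the set. Both sets concern RRTF1 and rest on 1 or 2 reads. W_W replicate 1 stood at 0.0557 CPM and JA_W replicate 3 at 0.0297 CPM, where the other 3 libraries of the group had no read. In such a set the gap always equals the range, so any read raises the flag. The flags therefore cannot tell whether these libraries differ from their group, and no chance rate is given.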

How the results depend on the processing

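Of 1501 recomputed member values, 1416 kept their direction and side of the threshold, 46 lost a call, 24 gained one, and 15, none of them called, changed sign. The sign changes were ORA47 for history without challenge (log2 0.0177 with upper-quartile scaling; -0.13 to 0.0489 as libraries were left out), RAP2.6 for history under challenge (-0.10 with library totals, -0.00182 with only the 2 groups, -0.00121 with the replicate block; -0.10 to 0.16), ERF2 for JA_W against W_JA (-0.0369 to 0.405) and the ERF2 interaction (-0.35 to 0.17). No member was raised by history under challenge with library totals (0 to 1 as libraries were left out), 4 were lowered by challenge of water-history plants with only the 2 groups (2 to 4), 2 to 6 had a positive interaction, and 2344 to 4407 genes in all had an interaction. The cause was not tested. Library totals moved the median over all genes to -0.12 for challenge of water-history plants and to -0.18 for JA at both ages.

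Fits of only the 2 groups ended the calls of DEAR1 for challenge with JA history (adjusted p = 0.103) and ERF5 for history under challenge (0.0618), and gave calls to ERF6 and DEAR1 for challenge with water history (0.0232 and 0.0139). The replicate numbers did not pair the samples: deviations of same-numbered libraries correlated at -0.33 to 0.34, over 0.1 in 5 of 24 pairs, and 0 of 16 libraries correlated best with its own number. With the number as a replicate block, DEAR1 for challenge with JA history (0.0730) and the RAP2.6L interaction (0.0557) lost their calls, and ERF6 gained them for challenge with water history (0.0405) and the interaction (0.0486).

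Of 1183 values of other named genes, 36 lost a call and none changed sign. List counts that moved by 2 genes or more include early stress genes raised by challenge with JA history (3 in place of 7 with library totals) signalling genes lowered by history under challenge (5 in place of 8 with upper-quartile scaling), raised by challenge with JA history (1 in place of 3 with library totals) or with a positive interaction (4 in place of 2 with DESeq2 or RLE), repressors lowered by challenge with water history (2 in place of 0 with library totals) and group IX genes lowered by history under challenge (3 in place of 1 with library totals). Depth limits RRTF1 and the unchallenged levels of RAP2.6.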
